A study of Homo sapiens with 14 samples.

Results

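The control libraries of BoRed-seq (Ctrl) and the input libraries of m7G-RIP-seq (Input) are the reference samples of 2 assays run on the same cell line, and they were compared here with each other by joining both count tables on the miRNA name. They are 7 of the 14 libraries of the series, 2 Ctrl and 5 Input. All come from A549, a human lung adenocarcinoma line, with no treatment of the cells in the labels. BoRed-seq detects N7-methylguanosine (m7G) by reducing it with borohydride, cleaving the reduced base and coupling a biotin probe to the site that is left. Ctrl RNA received borohydride that had been quenched with acid, and according to the study's methods it was otherwise taken through decapping, low pH, probe coupling and the streptavidin pulldown, so these libraries hold what the beads recovered without reduction. Input RNA was decapped and denatured by heat and set aside before the antibody was added, so it passed no pulldown. Both assays used the same small RNA library kit. Every difference below is a difference between these 2 procedures as well as between 2 sets of libraries, and procedure, experiment and library preparation cannot be told apart. In bulk RNA, fewer cells with a miRNA and less of it per cell cannot be told apart either.

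miRNAs are cut from hairpin transcripts by DROSHA and DICER into a duplex of a 5p and a 3p arm. The arm kept by an Argonaute protein, the guide, recognises target mRNAs mainly through its seed, the bases that follow the 5′ terminal base, and miRNAs with the same seed form a family with shared targets. The other arm, the passenger, is mostly degraded. Small RNA libraries are made by ligating adaptors to the ends of these RNAs and copying them, so a count is a share of a library and not an amount per cell.

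The mature sequences that carry most of what follows are shown here. They are written 5′ to 3′ with the seed (bases 2 to 8) in capitals, and sequences and positions are those of RefSeq on GRCh38.p14, which held 688 of the 771 miRNAs tested. miR-21-5p, the most abundant miRNA of these cells, lies on the plus strand at chr17:59841273-59841294, within an annotated UTR of VMP1.
miR-21-5p: uAGCUUAUcagacugauguuga

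The let-7 family guides, which repress RAS and HMGA2 transcripts among others, share a seed and are shown because they are close to each other in sequence and still differed between the baselines in both directions. let-7a-5p is encoded at 3 loci, 1 of them in an intron of MIR100HG at chr11:122146568-122146589 on the minus strand. let-7f-5p is encoded at 2 loci, 1 of them in an exon of MIRLET7A1HG at chr9:94176353-94176374 on the plus strand.
let-7a-5p: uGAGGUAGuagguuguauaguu
let-7b-5p: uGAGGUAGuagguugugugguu
let-7c-5p: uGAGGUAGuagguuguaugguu
let-7d-5p: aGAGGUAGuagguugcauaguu
let-7e-5p: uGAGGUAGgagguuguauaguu
let-7f-5p: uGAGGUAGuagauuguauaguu
let-7g-5p: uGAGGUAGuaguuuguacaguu
let-7i-5p: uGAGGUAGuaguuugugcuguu
miR-98-5p: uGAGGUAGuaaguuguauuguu

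The family with the seed AUUGCAC is shown for the same reason. miR-92a-3p belongs to the miR-17-92 cluster (exon of MIR17HG, chr13:91351361-91351382, plus strand), miR-25-3p to the miR-106b-25 cluster in an intron of MCM7 (chr7:100093571-100093592, minus strand), and miR-32-5p lies in an intron of TMEM245 (chr9:109046272-109046293, minus strand).
miR-92a-3p: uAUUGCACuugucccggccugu
miR-92b-3p: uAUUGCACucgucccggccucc
miR-25-3p: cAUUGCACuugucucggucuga
miR-363-3p: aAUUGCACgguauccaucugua
miR-32-5p: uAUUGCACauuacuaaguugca

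The remaining miRNAs among the 10 largest differences in each direction are shown for their composition, first those higher in Ctrl and, from miR-615-3p on, those lower. miR-31-3p is named only.
miR-4449: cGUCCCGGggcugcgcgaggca
miR-184: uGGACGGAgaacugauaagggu
miR-374a-3p: cUUAUCAGauuguauuguaauu
miR-29b-3p: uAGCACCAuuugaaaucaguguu
miR-96-5p: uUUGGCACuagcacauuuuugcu
miR-136-3p: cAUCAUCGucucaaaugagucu
miR-495-3p: aAACAAACauggugcacuucuu
miR-1307-5p: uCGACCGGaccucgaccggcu
miR-615-3p: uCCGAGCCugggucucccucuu
miR-424-3p: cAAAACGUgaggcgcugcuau
miR-7706: uGAAGCGCcugugcucugccgaga
miR-23b-5p: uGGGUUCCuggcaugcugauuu
miR-1301-3p: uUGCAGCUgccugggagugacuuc
miR-194-3p: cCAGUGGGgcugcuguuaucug
miR-328-3p: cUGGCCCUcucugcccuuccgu
miR-130b-5p: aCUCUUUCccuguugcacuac

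Values are given as CPM, the count scaled to a fixed total of all counts other than miR-21-5p, unless stated. On that basis the libraries held 1235925 and 915828 counts in Ctrl and 4228950 to 8774499 in Input, and 3 counts, taken as the limit that a count of 0 allows, were 2.43 and 3.28 CPM in Ctrl and at most 0.709 CPM in Input. miR-21-5p was 78.96% of all counts in Ctrl 1 (95% Wilson interval 78.93 to 78.99) and 80.42% in Ctrl 2 (80.39 to 80.46). In Input 1 to 5 it was 40.42% (40.38 to 40.45), 46.26% (46.23 to 46.29), 45.76% (45.73 to 45.79), 38.04% (38.01 to 38.07) and 41.01% (40.99 to 41.04). The groups did not overlap and differed by 37.4 percentage points, far more than the spread within either. A two-sided exact permutation test gave p = 0.0952, the smallest value that 2 against 5 libraries allow. The intervals cover counting error only. Set against all other miRNAs, miR-21-5p was 2.41 ± 0.22 higher in Ctrl (log2 ± SE, adjusted p = 3.6e-25 by DESeq2). Its passenger arm miR-21-3p stood at 4181 and 4387 CPM in Ctrl and at 558, 618, 624, 524 and 566 CPM in Input, a log2 difference of 2.89 ± 0.17 (adjusted p = 3.5e-60). Both arms of this hairpin were therefore higher in Ctrl, and both remained so when miR-21-5p was counted in the totals (0.91 and 1.39).

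**Figure D1:**
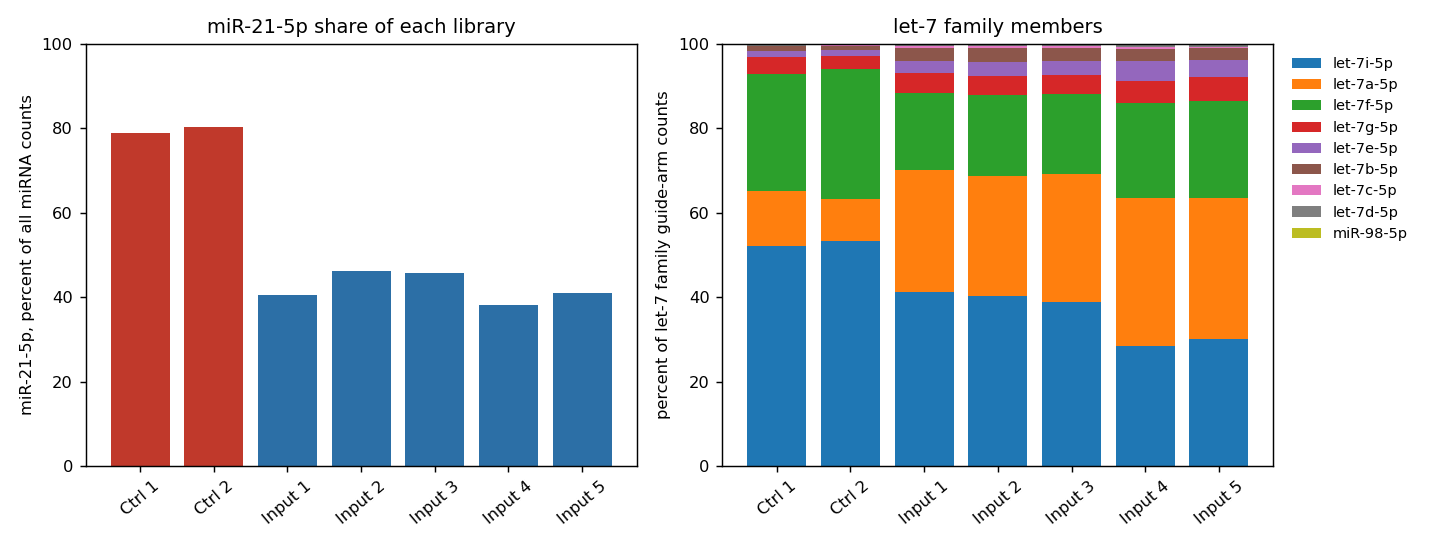
The left panel plots miR-21-5p as a percent of all miRNA counts in each library, and the right panel plots each let-7 family guide as a percent of the family's counts. Both Ctrl bars of miR-21-5p lie near 79.7% and the Input bars between 38.04% and 46.26%; in the right panel let-7a-5p takes 11.5% of the family in Ctrl and 31.3% in Input.

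The number of miRNAs with at least 1 count followed depth, 961 and 912 in Ctrl against 1048 to 1308 in Input. After each library was thinned to 915828 counts other than miR-21-5p, 907 and 912 were found in Ctrl and 832, 824, 849, 914 and 894 in Input, so the groups overlapped. The 10 most abundant other miRNAs made up 63.4% ± 1.26 of the remaining counts in Ctrl and 65.4% ± 1.81 in Input (SD, n = 2 and n = 5). The Input libraries fell into a set of Input 1 to 3 and a set of Input 4 and 5, a split that the labels do not name. The median absolute log2 difference between libraries was 0.275 to 0.308 within Input 1 to 3, 0.201 between Input 4 and 5, 0.440 between the Ctrl libraries, 0.572 to 0.645 between the Input sets, and 0.807 to 1.12 between Ctrl and Input libraries. Every Ctrl library was thus farther from every Input library than any libraries of 1 group were from each other.

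As a check on identity, 4 of the 5 miRNAs of the epithelial miR-200 family passed the count filter, and their summed level was 986 to 1083 CPM in Ctrl and 575 to 1647 CPM in Input. miR-141-3p was close to absent, with 14 and 6 counts in Ctrl and 0, 2, 0, 4 and 2 counts in Input. Of 15 markers of blood, endothelium, muscle, liver, neurons and stroma, 5 passed the filter. Their summed level was 4771 to 4792 CPM in Ctrl and 1058 to 1712 CPM in Input, nearly all of it miR-9-5p and miR-126-3p. Defining markers of blood cells were at or near 0, with at most 4 counts of miR-223-3p, 6 of miR-142-3p and 10 of miR-451a in a library, and miR-486-5p was listed at 0 throughout. The muscle marker miR-206 and the liver marker miR-122-5p were listed at 0 too, miR-122-5p being 1 of the entries that overlap another miRNA on the other strand. Another muscle marker, miR-1-3p, was not at 0, with 2 and 16 counts in Ctrl and 42, 26, 4, 46 and 36 in Input. In Input 5 the neuronal marker miR-124-3p had 18 counts and the stromal marker miR-145-5p had 24. The part of other cell types in the differences was not tested.

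The comparison per miRNA asks which miRNAs differ between the 2 baselines once miR-21-5p is left out of the totals. miR-21-5p itself stayed among the miRNAs tested and is counted among those called higher. Of 771 miRNAs that passed the count filter (10 counts in at least 2 of the 7 libraries), 711 received an adjusted p. At an adjusted p under 0.05, 166 were higher in Ctrl (23.3%) and 106 were lower (14.9%), together 38.3%. In 269 of these 272 every Ctrl library lay on 1 side of every Input library, which was also so in 384 of all 771 (49.8%). Differences were large: 148 of the higher miRNAs lay above a log2 of 1 and 86 of the lower ones below -1, while the median over all 771 was -0.01. The p-values measure the spread between these libraries, which the sources do not say came from separate cultures and which may be technical. With miR-21-5p in the totals the values moved down by a median of 1.51, and 46 miRNAs were then higher (5.97%) and 378 lower (49.0%). All 106 lower miRNAs stayed lower on that scale, while of the 166 higher ones 46 stayed higher, 107 were no longer called and 13 were called lower. With median-of-ratios factors the split was 147 higher (23.7%) and 133 lower (21.4%).

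**Figure D2:**
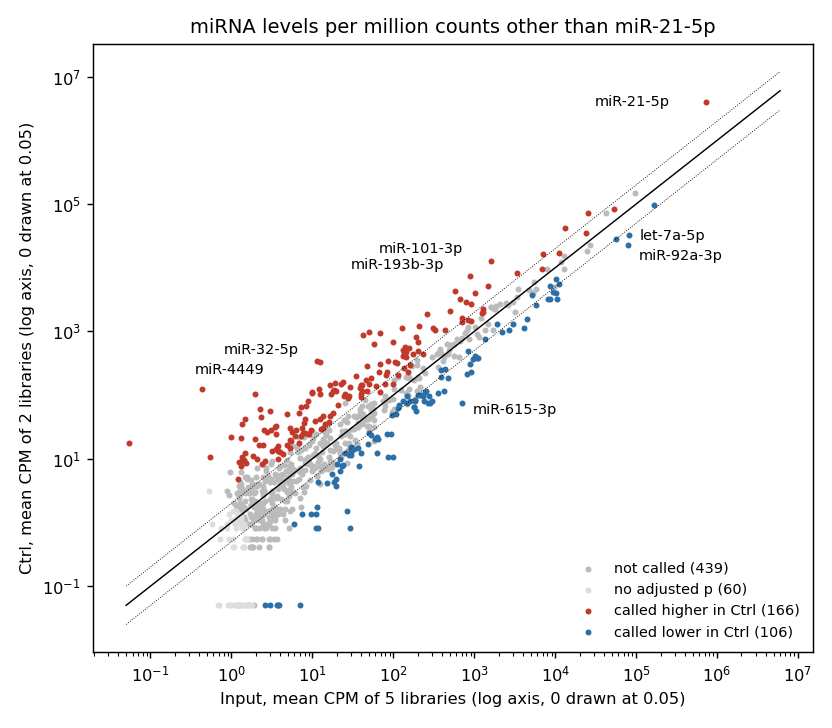
Each point is a miRNA, with its mean level in Input on the x axis and in Ctrl on the y axis, both in CPM without miR-21-5p on log axes. The solid line marks equal levels and dotted lines a difference of 1 on the log2 scale; the 166 called higher lie above and the 106 called lower lie below, and with miR-21-5p in the totals the points would sit lower, by a median of 1.51 on the log2 scale.

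The largest differences in favour of Ctrl, among called miRNAs of at least 100 CPM in the higher group, began with miRNAs that Input barely held. miR-4449 had 130 and 133 counts in Ctrl and 0, 0, 2, 11 and 3 counts in the deeper Input libraries. Its fitted log2 of 8.15 ± 1.43 (adjusted p = 1.2e-07) rests on those few Input counts, and was 9.43 without Input 4. miR-4449 lies in an exon of the noncoding gene DANCR. miR-184 stood at 111 and 93.9 CPM in Ctrl and at 1.66, 0.266, 0, 4.00 and 3.99 CPM in Input (log2 5.69 ± 1.48).

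Others were found in every library. miR-32-5p was 312 and 373 CPM in Ctrl against 7.33, 10.7, 15.0, 10.6 and 13.9 CPM in Input, a log2 difference of 4.89 ± 0.32 (adjusted p = 5.6e-51). miR-374a-3p, from the FTX transcript on the X chromosome, was 279 and 376 CPM against 9.22, 13.6, 15.5, 10.9 and 12.3 CPM (4.73 ± 0.29). In both, all Ctrl values were far above all Input values. miR-96-5p, a member of the sensory-organ miR-183 cluster, was 723 and 1139 CPM against 54.9, 51.0, 53.2, 86.4 and 99.9 CPM (3.75 ± 0.37).

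In a further group the Ctrl libraries themselves differed. miR-31-3p was 387 CPM in Ctrl 1 and 1600 CPM in Ctrl 2, against 25.3, 30.8, 30.1, 83.4 and 82.5 CPM in Input. Its log2 of 4.30 ± 0.64 became 4.99 without Ctrl 1 and 2.94 without Ctrl 2. miR-29b-3p behaved alike at 549.4 and 1186 CPM against 29.8, 37.0, 16.8, 58.7 and 71.7 CPM (4.34 ± 0.55, and 3.68 without Ctrl 2), as did miR-495-3p at 307 and 974 CPM against 52.3, 43.6, 35.5, 72.9 and 84.8 CPM (3.47 ± 0.50, 4.07 without Ctrl 1 and 2.41 without Ctrl 2). All 3 remained called in each of these fits. miR-136-3p (3.47 ± 0.54) and miR-1307-5p (3.43 ± 0.39) completed the 10.

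On totals without miR-21-5p the largest differences in favour of Input were smaller. When miR-21-5p was counted in the totals, the same miRNAs lay between -4.69 and -3.23. Those in favour of Ctrl then lay between 1.91 and 6.57, so the order of size depends on the scaling. miR-615-3p, encoded within the HOXC cluster, was 78.5 and 73.2 CPM in Ctrl and 1226, 863, 1075, 185 and 175 CPM in Input, a log2 of -3.22 ± 0.72 (adjusted p = 4.8e-05). Against Input 1 to 3 the value was -3.795 ± 0.236, and against Input 4 and 5 it was -1.24 ± 0.27. For the other 9 the Input libraries were closer together. miR-92b-3p was 1164 and 1084 CPM against 3743, 3954, 3724, 4940 and 4122 CPM (-1.87 ± 0.21), and miR-92a-3p, the oncomiR of the miR-17-92 cluster, was 23705 and 21424 CPM against 81489, 75996, 75382, 84790 and 74612 CPM (-1.80 ± 0.16). The remaining 7 were miR-424-3p, miR-7706, miR-23b-5p, miR-1301-3p, miR-194-3p, miR-328-3p and miR-130b-5p, between -1.99 and -1.75.

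**Figure D3:**
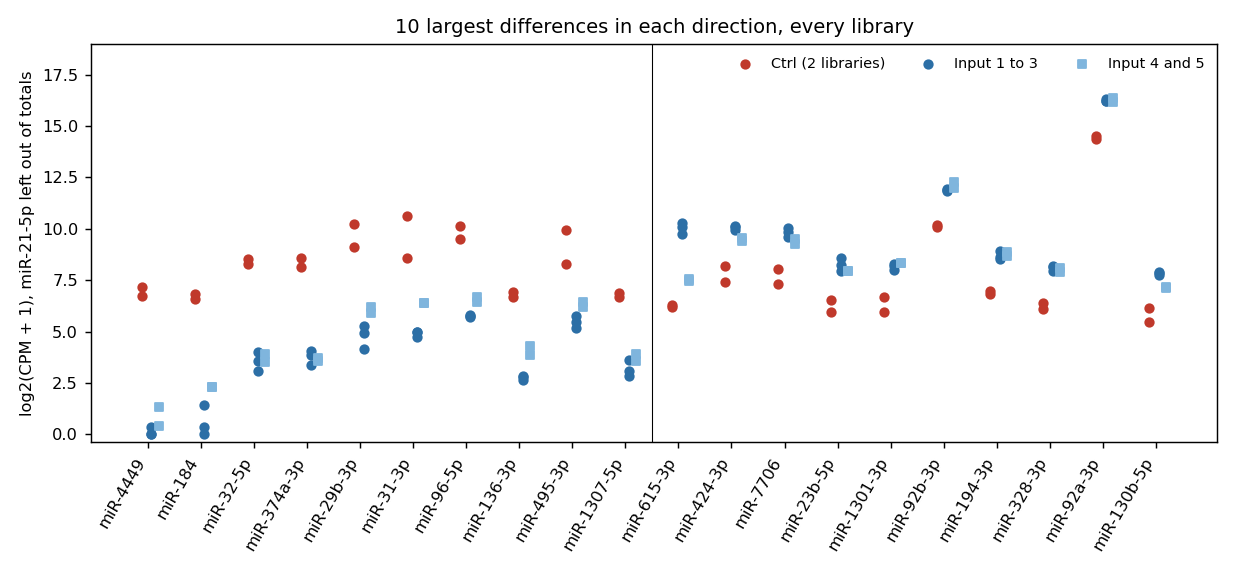
Every library is a point at log2(CPM + 1), with miR-21-5p left out of the totals, for the 10 largest differences in each direction. They were chosen for having no overlap between the groups. miR-31-3p and miR-495-3p show the gap between the Ctrl libraries, and miR-615-3p shows Input 4 and 5 between Input 1 to 3 and Ctrl; with miR-21-5p in the totals these 20 keep their direction.

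Among the most abundant miRNAs the order of the baselines differed. miR-100-5p led Input at 139458, 177831, 161665, 178688 and 172477 CPM and held 97314 and 94084 CPM in Ctrl (log2 -0.79 ± 0.19, adjusted p = 0.00014). let-7i-5p led Ctrl at 150551 and 149672 CPM, against 132395, 115479, 110555, 59872 and 67979 CPM in Input, which did not pass the test (0.63 ± 0.36, adjusted p = 0.18). Against Input 1 to 3 alone let-7i-5p differed by 0.33 ± 0.16, and against Input 4 and 5 by 1.23 ± 0.22. miR-30a-5p was 67144 and 75493 CPM against 22018 to 29486 CPM (1.47 ± 0.20), and miR-7-5p 39850 and 43956 CPM against 10011 to 15546 CPM (1.68 ± 0.23). With miR-21-5p in the totals those 2 values became -0.03 and 0.18. miR-99b-5p was lower (-0.97 ± 0.21), and miR-27b-3p, miR-10a-5p and miR-30d-5p did not pass the test (0.75, -0.23 and -0.44). For miR-27b-3p the difference was 1.12 ± 0.17 against Input 1 to 3 and 0.32 ± 0.23 against Input 4 and 5.

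The let-7 guides made up 280641 to 288225 CPM in Ctrl and 210852 to 321539 CPM in Input, so the family as a whole overlapped between the groups. Its members did not share a direction. let-7a-5p was 37497 and 27906 CPM in Ctrl and 93431, 81872, 86343, 73814 and 75275 CPM in Input (log2 -1.33 ± 0.22, adjusted p = 1.5e-08). let-7f-5p was 79897 and 86759 CPM in Ctrl and 58602, 54498, 53495, 47790 and 51637 CPM in Input (0.65 ± 0.17, adjusted p = 0.00083). Within the family, a measure that no scaling changes, let-7a-5p made up 31.3% ± 2.8 in Input and 11.5% ± 2.2 in Ctrl (SD, n = 5 and n = 2), while let-7f-5p stood at 20.3% ± 2.3 and 29.3% ± 2.3 and let-7i-5p at 35.8% ± 6.0 and 52.8% ± 0.78. With miR-21-5p in the totals let-7f-5p turned to -0.86. With median-of-ratios factors it stood at 0.33 and did not pass the test, and 0 of the guides were higher and 6 lower.

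Of the 9 guides 5 were lower in Ctrl and 1 was higher, against 14.9% and 23.3% of all tested, and their median log2 was -1.21. Counted from 1 at the 5′ end and against let-7a-5p, let-7f-5p differs by G12A, let-7g-5p by G12U and U18C, and let-7i-5p by G12U, A17G, U18C and A19U. These 3, the guides with a substitution at position 12, stood at 0.65, -0.43 and 0.63, of which only that of let-7f-5p passed the test. let-7b-5p (A17G and A19G), let-7c-5p (A19G), let-7d-5p (U1A and U16C) and let-7e-5p (U9G) were all lower, by log2 values of -1.35, -1.52, -1.39 and -1.21. miR-98-5p (G11A and A19U) did not pass the test at 0.46. This grouping by position was made after the values were seen. How reads were divided between members this close in sequence, or between several loci, is uncertain. The passenger arms went both ways, 4 higher and 3 lower of 10: let-7i-3p was 80.1 and 168 CPM against 9.78 to 13.1 CPM (3.36 ± 0.35), and let-7d-3p 105 and 93.9 CPM against 141 to 261 CPM (-1.10 ± 0.34). After counting miR-21-5p in the totals, 0 guides were higher and 9 lower, and 1 passenger was higher and 4 lower. Of all tested 5.97% were then higher and 49.0% lower.

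The 5 miRNAs with the seed AUUGCAC also parted. miR-92a-3p and miR-92b-3p were lower in Ctrl (above), miR-25-3p was 5148 and 3906 CPM against 3646, 4261, 4468, 5594 and 5599 CPM and overlapped (-0.06 ± 0.27), miR-363-3p was 33.2 and 36.0 CPM against 12.3 to 16.3 CPM (1.26 ± 0.31, adjusted p = 0.00028), and miR-32-5p was higher by 4.89. As a share of the 5, miR-92a-3p was 89.9% ± 1.26 in Input and 79.0% ± 1.27 in Ctrl, and miR-32-5p 0.0133% ± 0.0040 and 1.21% ± 0.257. GC content ran from 63.6% in miR-92b-3p and 54.5% in miR-92a-3p through 50.0% in miR-25-3p and 40.9% in miR-363-3p to 31.8% in miR-32-5p, the same order as the log2 values. These 5 were picked for display after their values were seen.

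GC content was set against the difference over all 688 miRNAs with a sequence. The 143 called higher in Ctrl had a median GC content of 40.9%, the 98 called lower 57.5% and the 397 not called 54.5%, while the median length was 22 bases in each. Below 30% GC, 11 of 16 miRNAs were higher and 0 lower. From 30% to 40%, 44 of 95 were higher and 1 lower. From 40% to 50% the counts were 48 and 21 of 166, from 50% to 60% 26 and 38 of 220, from 60% to 70% 9 and 27 of 123, and at 70% or more 5 and 11 of 68. The share called higher thus dropped with each step up to 70%, and the median log2 of the bins went from 2.67 to -0.98. Across miRNAs, which share libraries and depth and are not independent replicates, GC content and log2 had a Pearson r of -0.43 and a Spearman rho of -0.48 (n = 688). Over the 177 with a mean of at least 100 CPM, r was -0.47. Each of the 10 pairs of a Ctrl and an Input library gave an r between -0.45 and -0.31. The 2 Ctrl libraries set against each other gave 0.01, the pairs within Input 1 to 3 gave -0.05 to -0.02, and Input 1 to 3 set against Input 4 or Input 5 gave 0.10 to 0.27, and Input 4 against Input 5 gave 0.26. miR-4449, the largest difference named above, has 81.8% GC. The rest of the 688 had no adjusted p.

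**Figure D4:**
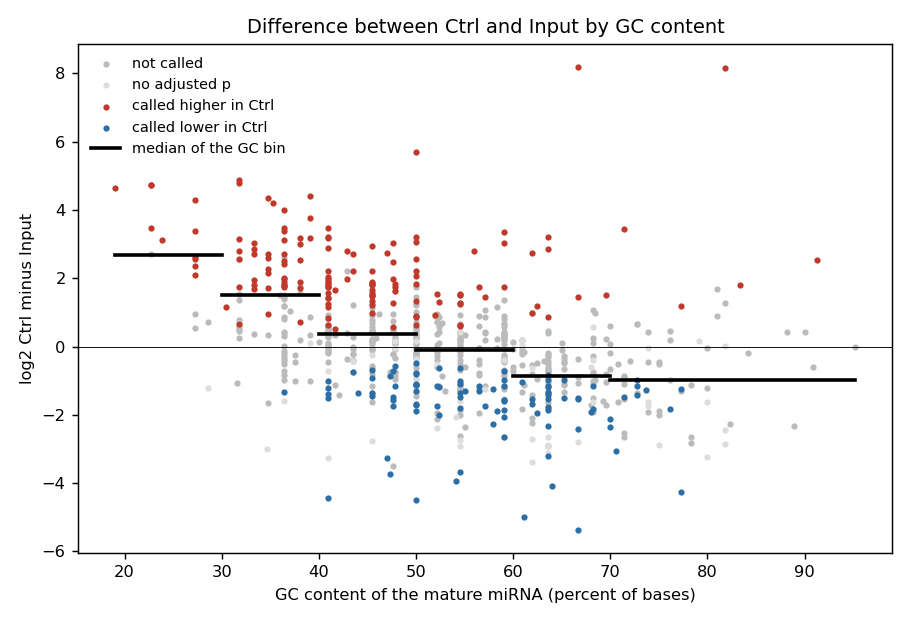
Each point is 1 of 688 miRNAs, with the GC content of its mature sequence in percent on the x axis and its log2 difference, Ctrl minus Input, on the y axis. Bars give the median of each GC bin, which goes from 2.67 below 30% to -0.98 at 70% and above. The r of -0.43 was the same to 2 decimals with miR-21-5p in the totals, with TMM factors and with median-of-ratios factors.

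The same held within seed families in most pairs. Among 161 pairs of miRNAs with the same seed but unequal GC content, from 54 families, the member with less GC had the higher log2 in 121 (75.2%). Where both had at least 100 CPM it did so in 45 of 57 pairs (78.9%) from 16 families. Pairs of 1 family share members, so these counts are descriptive. The let-7 seed family, the largest with 11 members, gave more of the pairs than any other family in both counts. Calls in both directions occurred in 7 of the 60 families with 2 or more members.

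The ratio of the 5p to the 3p arm of a hairpin is taken within a library and so does not depend on the scaling. Where arms have several loci, as let-7a-5p and let-7a-3p do, the ratio can mix hairpins. Of 173 hairpins with both arms measured, the 5p share was higher in Ctrl for 29 (16.8%) and lower for 34 (19.7%), 36.4% in all, by limma with Benjamini-Hochberg adjustment. In 43 of these 63 the arm that led on average over the Ctrl and Input libraries together had a smaller share in Ctrl than in Input. As 5 of those 7 libraries are Input, the leading arm was set mostly by Input, so a smaller share in Ctrl is partly built in. Over all 173 hairpins the median change of the log2 ratio toward that arm was -0.42. For miR-424 the 5p arm was 27.4% and 52.3% of the counts in Ctrl and 1.65%, 2.06%, 1.59%, 3.58% and 4.07% in Input, a log2 ratio difference of 4.71 ± 0.58 (adjusted p = 0.0038). For miR-106b it was 25.1% and 55.1% against 3.69%, 4.33%, 3.60%, 4.75% and 5.19% (3.84 ± 0.50). miR-1307, miR-18a and miR-671 moved the same way (4.99, 3.33 and 3.13). In the other direction, the 5p arm of miR-31 was 85.0% and 63.1% in Ctrl and 98.4%, 98.0%, 98.2%, 96.4% and 96.6% in Input (-3.72 ± 0.56, adjusted p = 0.005). That of let-7a was 98.4% and 98.6% against 99.8% or more (-3.27 ± 0.26). miR-30d, miR-193b and miR-130b followed at -3.40, -3.14 and -2.77. Ctrl 1 and Ctrl 2 were far apart in several of these, and without Ctrl 2 miR-18a, miR-30d, miR-193b and miR-130b no longer passed the test; miR-193b also did not against Input 4 and 5 alone.

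The leading arm changed with the baseline in 8 called hairpins. The 5p share of miR-374a was 23.7% ± 0.754 in Ctrl and 65.1% ± 11.6 in Input, and that of miR-654 41.5% ± 1.35 and 61.0% ± 2.52 (SD, n = 2 and n = 5). miR-324 and miR-576 went the other way, from 18.7% ± 8.36 and 31.9% ± 11.4 in Input to 58.0% ± 9.07 and 68.3% ± 5.80 in Ctrl. miR-493, miR-382, miR-369 and miR-377 were the others, and the fewest counts of an arm in a library were 7 for miR-369 and 0 for miR-377. In 143 hairpins the arms had unequal GC content, and the arm with less GC gained in 84 (58.7%). Among the called ones it gained in 38 of 55 (69.1%).

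**Figure D5:**
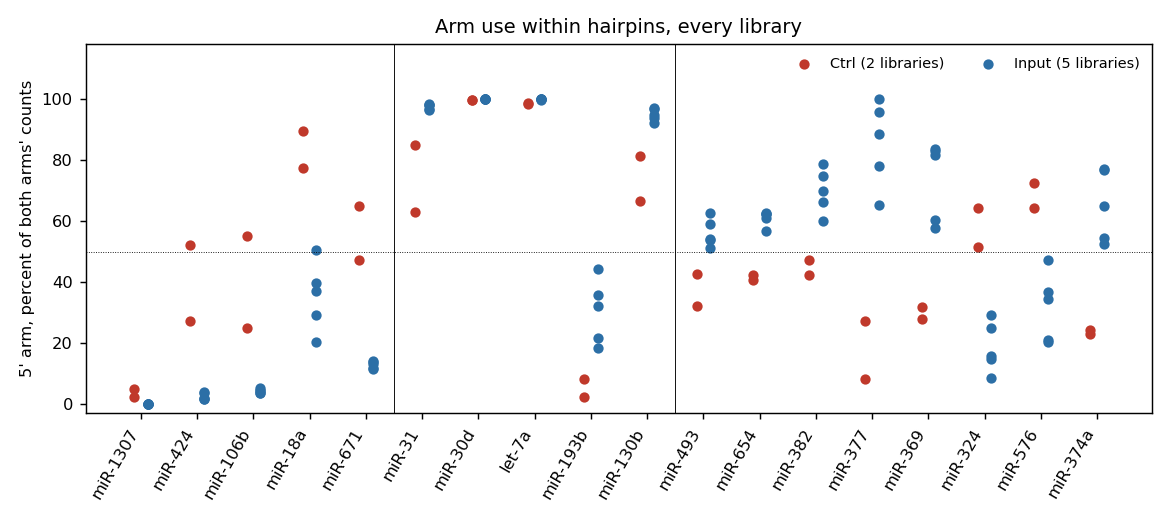
Points give the 5p arm as a percent of both arms' counts in every library, for the 5 largest called differences in each direction and the 8 hairpins whose leading arm differed. The dotted line marks 50%; miR-424 and miR-106b show Ctrl points between 25.1% and 55.1% far above Input points under 6%, and the 8 at the right have Ctrl and Input on opposite sides of the line on average.

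Within polycistronic clusters calls were mixed. The miR-17-92 and miR-106b-25 clusters hold growth-promoting miRNAs that are transcribed together within each cluster, not across the clusters. Of their miRNAs 4 of 9 were higher in Ctrl and 1 was lower, against 23.3% and 14.9% of all tested. miR-19b-3p was 753 and 1531 CPM against 99.6, 121, 132, 131 and 152 CPM (3.17 ± 0.33), miR-106b-5p 375 and 1003 CPM against 83.8 to 123 CPM (2.79 ± 0.39) and miR-19a-3p 108 and 128 CPM against 16.7 to 20.3 CPM (2.70 ± 0.25). miR-18a-5p was also higher (2.20 ± 0.40), miR-92a-3p was lower, and miR-17-5p, miR-20a-5p, miR-93-5p and miR-25-3p, between -0.06 and 0.36, did not pass the test. In the imprinted DLK1-DIO3 cluster on chromosome 14, 13 of 32 were higher and 1 lower, against 23.3% and 14.9% of all tested, with a median log2 of 0.75 against -0.01 over all miRNAs. miR-381-3p was 4493 and 5980 CPM against 1267, 1037, 1108, 1987 and 2028 CPM (1.82 ± 0.36), while miR-323a-3p was lower (-1.18 ± 0.43). These counts depend on the scaling. When miR-21-5p was counted in the totals, 3 miRNAs of the miR-17-92 and miR-106b-25 clusters were higher and 5 lower. In the DLK1-DIO3 cluster 2 were then higher and 10 lower, against 5.97% and 49.0% of all tested. With median-of-ratios factors 13 of that cluster were higher and 4 lower, against 23.7% and 21.4% of all tested. Its members miR-494-3p and miR-382-5p were called higher against Input 1 to 3 and lower against Input 4 and 5.

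In other lists most calls were higher. All 3 miR-29 members, repressors of collagen and DNMT3 transcripts, were higher: miR-29a-3p was 2913 and 5170 CPM against 684, 751, 677, 1491 and 1567 CPM (1.97 ± 0.45), and miR-29c-3p reached 3.37 ± 0.45. In the miR-15 and miR-16 family, which restrains the cell cycle, 4 of 5 were higher, against 23.3% of all tested, with miR-424-5p at 2.70 ± 0.35 and miR-15a-5p at 2.20 ± 0.43. miR-101-3p, a repressor of EZH2, was 11156 and 14703 CPM in Ctrl and 1308, 1759, 1786, 1500 and 1613 CPM in Input (3.02 ± 0.23, adjusted p = 1.2e-36), and with miR-148a-3p (2.04 ± 0.35) and miR-148b-3p (0.83 ± 0.34) 3 of that list of 4 were higher. Ctrl 2 (1676 CPM) and Input 5 (1707 CPM) overlapped for miR-148b-3p, which turned to -0.67 with miR-21-5p in the totals. The p53 targets miR-34a-5p and miR-34c-5p were both higher (2.06 ± 0.36 and 2.10 ± 0.30). miR-193b-3p, at 2957 and 11707 CPM against 500 to 1404 CPM, was higher by 3.04 ± 0.55, while 2 of the 7 in its list were lower. Counting miR-21-5p in the totals gave 2 higher and 0 lower for miR-29, and 1 and 1 for miR-15 and miR-16. It gave 1 and 1 for miR-148, miR-152 and miR-101, 0 and 0 for miR-34, and 1 and 4 for miR-193 and miR-365. Of all tested 5.97% were then higher and 49.0% lower.

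In other lists most calls were lower. In the list of miR-99, miR-100 and miR-125, 4 of 5 were lower, against 14.9% of all tested, and 0 higher, with a median of -0.95. miR-125a-5p was 3142 and 3388 CPM against 8612, 8751, 9830, 13846 and 11954 CPM (-1.70 ± 0.27). In the miR-320 family, whose hairpins bypass DROSHA, 4 of 5 were also lower, among them miR-320c at 112 and 121 CPM against 304, 263, 268, 234 and 209 CPM (-1.13 ± 0.25). Of 9 mirtrons past the filter, which are spliced rather than cut from their transcripts, 2 were lower, a share near the 14.9% of all tested, and 0 higher. miR-191-5p (-1.15 ± 0.22) and miR-484 (-0.84 ± 0.18), both used as reference miRNAs in qPCR, were lower, while 0 of the 3 measured miR-103, miR-107 and miR-26 members passed the test in either direction, with a median of 0.09. Those 3 were called lower when miR-21-5p was counted in the totals, as were 49.0% of all tested. Among entries that resemble other small RNA classes, 1 of 7 rRNA-like entries was higher, 1 of 5 tRNA-like and mitochondrial-like entries was lower, and 1 of 11 snoRNA-derived entries was higher, shares near or below the 23.3% higher and 14.9% lower of all tested.

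In the miR-30 family 3 of 5 guides were higher, against 23.3% of all tested, led by miR-30e-5p at 2849 and 2883 CPM against 1035, 844, 870, 531 and 644 CPM (1.87 ± 0.31). In the miR-200 family miR-200a-3p (1.57 ± 0.56) and miR-429 (1.80 ± 0.57) were higher and miR-200c-3p was lower (-0.76 ± 0.28), and none of these 3 passed the test without Ctrl 1 or without Ctrl 2. Once miR-21-5p was counted in the totals, 0 miR-30 guides and 0 miR-200 miRNAs were higher, and 2 of each were lower. Of all tested 5.97% were then higher and 49.0% lower. Of the markers of other cell types, miR-9-5p was 3312 and 3112 CPM against 506, 617, 612, 758 and 833 CPM (2.27 ± 0.26), miR-143-3p 180 and 132 CPM against 10.3 to 32.1 CPM (3.02 ± 0.56), and miR-126-3p 1269 and 1524 CPM against 530 to 836 CPM (0.99 ± 0.26), the last of which turned to -0.52 with miR-21-5p in the totals.

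Input had more libraries and more counts per library than Ctrl, so the numbers found in 1 group alone are not comparable. In all, 547 miRNAs had 0 counts in both Ctrl libraries and at least 1 in Input, of which 56 were seen in all 5 Input libraries, 31 passed the count filter and 6 were called lower. These 31 passed the filter through Input alone, so a call could only be lower. Of all tested 14.9% were called lower. The highest was miR-3652, with 29, 57, 68, 42 and 47 counts in Input, at least 5.04-fold lower in Ctrl when Ctrl is set at 3 counts over the group. In the reverse case 55 miRNAs had 0 counts in all Input libraries, 11 of them with counts in both Ctrl libraries. The highest of these was miR-4531 with 6 and 4 counts, and 0 of the 55 passed the count filter.

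Ctrl was also tested against each Input set, 2 comparisons that share the Ctrl libraries. The mean of Input 4 and 5 lay between Ctrl and Input 1 to 3 for 181 of the 272 called miRNAs. Calls in opposite directions were found for 4 of 612: miR-200b-3p, miR-494-3p and miR-382-5p were higher than in Input 1 to 3 and lower than in Input 4 and 5 (0.57 and -0.86 for miR-200b-3p), and miR-1269b was lower and then higher (-1.40 and 0.88).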

How the data were processed

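The deposited tables, 1 per assay, held raw counts of reads per mature miRNA (2588 entries), which the authors had neither normalized nor pooled. Adaptors had been trimmed with Trimmomatic, reads aligned to the human genome (hg38) end to end with at most 1 mismatch and at most 10 loci, and counted with featureCounts over miRBase. The paper's methods name STAR as the aligner and the submitters' processing notes name Bowtie2. How reads with several loci were counted, and whether strand was used, is not given in the sources used here.

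Groups and replicates came from the sample titles, and the Red and IP libraries were not used. Ctrl was compared with Input by DESeq2's Wald test (version 1.42.0, R 4.3.3), with size factors set to library totals without miR-21-5p, miRNAs of at least 10 counts in at least 2 libraries, unshrunken log2 values and Benjamini-Hochberg adjustment. DESeq2 gave no adjusted p to 60 of 771 miRNAs. Every adjusted p in the report is from this fit, or for arm ratios from limma 3.58.1 on log2((5p + 0.5)/(3p + 0.5)). edgeR 4.0.16 was an alternative. Chi-square per degree of freedom was 56.5 between the Ctrl libraries and 25.8 to 655 between Input libraries, so each counted as a replicate. Counts have no molecular identifiers. On simulated data with a log2 of 2, DESeq2 recovered 135 of 200 changed miRNAs and made 10 false calls. The 200 were drawn before the count filter, which left 703 miRNAs, so those lost to it count as missed. By limma 38 of 60 changed arm ratios among 173 were recovered, with 2 false calls.

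The comparison and the lists were chosen with earlier results of these data known. Counts for lists are on totals without miR-21-5p unless stated, and they change with the scaling. The miRNAs named are both miR-21 arms, the 10 most abundant others in each group, the 10 largest log2 values in each direction among called miRNAs with at least 100 CPM in the higher group and no overlap, the 5 highest at 0 in the other group, the 5 largest called arm ratios in each direction with both arms at 10 or more counts in every library, and members of the lists. The lists not described in the report gave these counts higher and lower: 3 and 0 of 6 miR-30 passengers, 2 and 0 of 5 for miR-23, miR-27 and miR-24, 0 and 1 of 2 for miR-221 and miR-222, 1 and 1 of 4 miR-181, 2 and 0 of 3 for miR-183, miR-96 and miR-182, 2 and 0 of 8 miR-378, 2 and 0 of 3 for miR-192, miR-194 and miR-215, 4 and 0 of 7 for miR-28, miR-151 and miR-708, 2 and 0 of 3 for miR-130, miR-301 and miR-454, 0 and 1 of 5 HOX cluster miRNAs, 3 and 0 of 4 for miR-31 and miR-582, 1 and 2 of 7 for miR-193 and miR-365, 1 and 2 of 3 for miR-423, miR-484, miR-191 and miR-425, and 0 and 0 of 1 for miR-1246 and miR-1290. Of all tested 23.3% were higher and 14.9% lower, and with miR-21-5p in the totals 5.97% and 49.0%. With miR-21-5p counted, 1 miR-30 passenger was higher, as were 2 for miR-31 and miR-582. The lists of miR-183, miR-96 and miR-182 and of miR-193 and miR-365 then had 1 higher each, and the others 0.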

Additional observations from a re-analysis of the deposited data

Results flagged for a closer look

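Among the 40 Input values tested for a sample far from the others, 1 was set apart: miR-4449 was 1.52 CPM in Input 4 against a median of 0.295 CPM in the group, and the gap to the nearest library was 0.774 of the range. Chance alone sets apart about 1 in 20 such groups.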

How the results depend on the processing

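With miR-21-5p in the totals 46 miRNAs were higher and 378 lower, and with limma voom 52 were lower. Leaving out 1 library gave 107 to 176 higher and 59 to 104 lower. Without Ctrl 1 the counts were 134 and 70, without Ctrl 2 107 and 59, with 1 Ctrl library assumed to vary like Input. Of the 272 calls 148 were called in all 7 of these fits, 197 without Ctrl 1 and 164 without Ctrl 2. Median-of-ratios factors (147 and 133), TMM factors (149 and 132), edgeR (154 and 90), no count filter (185 and 96), a stricter filter (140 and 84), thinned counts (153 and 89), Input 1 to 3 (218 and 119) and Input 4 and 5 (157 and 111) stayed within 1.5 times. Arm ratio calls went to 15 and 21 with no count filter, to 10 to 30 and 8 to 35 with 1 library left out, to 24 and 19 without Ctrl 1 and to 10 and 8 without Ctrl 2. Their cause was not tested.

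Ctrl and Input share replicate numbers 1 and 2, and the sources do not say whether equal numbers mark shared RNA. The correlation of the deviations was -0.01. It cannot decide this, since other differences between the libraries enter it too. With the replicate number as a block, in those 4 libraries, 183 miRNAs were higher and 80 lower (195 and 86 without the block), and arm calls were 13 and 12 (24 and 29 without the block).

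The difference of the miR-21-5p share kept its direction in every alternative. The correlation of GC content with log2, an alternative chosen after seeing the data, was -0.39 against Input 4 and 5 and -0.30 with no count filter.

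With miR-21-5p in the totals 19 named miRNAs that were higher took the opposite sign: let-7f-5p (-0.86), miR-30a-5p (-0.035), miR-192-5p (-0.94), miR-30a-3p (-0.87), miR-30e-3p (-0.17), miR-27a-3p (-0.22), miR-24-3p (-0.90), miR-148b-3p (-0.67), miR-182-5p (-1.01), miR-378c (-0.59), miR-215-5p (-0.79), miR-28-5p (-0.92), miR-151a-5p (-0.085), miR-151b (-0.18), miR-454-3p (-0.58), miR-425-5p (-0.85), miR-379-5p (-0.26), miR-6087 (-0.049) and miR-126-3p (-0.52).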

Other observations

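Some miRNAs were listed at 0 in all 14 libraries, among them miR-103a-3p, miR-423-5p and miR-423-3p. By their RefSeq positions, 83 mature miRNAs of the count tables overlap a mature miRNA on the other strand, such as miR-103a-3p with miR-103b over 23 bases and miR-423-5p with miR-3184-3p over 23 bases. Of these 83, 76 (91.6%) had 0 counts in every library, against 803 of all 2588 entries (31.0%). Of the 61 with a single locus 57 were at 0. miR-122-5p, used above as a liver marker, is among them and overlaps miR-3591-3p over 21 bases. Whether the overlap and the value of 0 are linked was not tested. miR-24-3p, which overlaps miR-3074-5p at 1 of its 2 loci, had 428618 counts over the 7 libraries.

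miR-4257, chosen after its values were seen and below the level set for naming, had 26 and 13 counts in Ctrl and 0, 1, 0, 1 and 0 counts in the deeper Input libraries (21.04 and 14.2 CPM against at most 0.138 CPM).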
